A study of Homo sapiens with 5 samples.

Results

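The genes described here encode the enzymes that make serine and pass its carbon into the folate cycle, in a gefitinib-sensitive lung cancer line and its gefitinib-resistant derivative. They were chosen by name as a 10-gene list, PHGDH, PSAT1, PSPH, SHMT1, SHMT2, MTHFD1, MTHFD1L, MTHFD2, ASNS and CBS, and each gene was taken as the table entry of that name with the highest mean level. The choice was made with the lower level of PSPH in the resistant cells known, so the levels and differences of these genes between the cell lines are given as a description, without a test. An entry was found for 9 of the 10 genes, among 37181 entries in the table, and all 9 were among the 16189 entries tested, which averaged at least 0.5 FPKM (fragments per kilobase of transcript, scaled to the mapped fragments of the library). ASNS had no entry of its own name, since 16 of its transcripts sat in a joint entry of 3 genes that is named AC004967.1.

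HCC827 is a human lung adenocarcinoma line that carries an activating deletion in exon 19 of EGFR, and gefitinib is an inhibitor of the EGFR kinase. The parental, gefitinib-sensitive cells (HCC827/GS) were compared with HCC827/GR cells, which had been grown in gradually raised gefitinib for more than 6 months and carry the same deletion. RNA was sequenced in 2 parental libraries (replicates 2 and 3) and 3 HCC827/GR libraries (replicates 1, 2 and 3). HCC827/GR is a single derived line, nothing in the sources used here says that the libraries of a line came from separate cultures, and whether gefitinib was present at harvest was not given, so the spread between libraries may be technical.

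Serine is made from the glycolytic intermediate 3-phosphoglycerate by PHGDH, PSAT1 and PSPH, acting in that order. The SHMT enzymes then split serine into glycine and a carbon unit that is carried by tetrahydrofolate and is needed for purines, thymidylate and methionine. The MTHFD enzymes interconvert the folate-bound forms, with separate sets of enzymes in the cytosol and the mitochondrion. Many tumours raise these enzymes, and the transcription factor ATF4 is a known activator of several of them. PSPH lies on chromosome 7 close to EGFR, whereas the other genes of the list lie elsewhere or, for ASNS, far along the same chromosome.

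Promoter sequence was read from RefSeq (GRCh38.p14) in windows of 300 bases, reaching from 250 bases before an annotated start to 50 after it. Windows were given for 8 of the 10 genes, 14 windows in all, with PSPH and SHMT2 unmatched. The core of the C/EBP-ATF response element, searched as TGATGNAA on both strands, was present in 1270 of all 35116 windows (3.62%) and in 4 of the 14 windows of the list, those being the ASNS window and 3 overlapping MTHFD1L windows. These sites are shown because the element is the sequence class bound by ATF4, with the motif in capitals, for MTHFD1L at chr6:150866346-150866375 on the plus strand and for ASNS at chr7:97872458-97872487 on the minus strand.
MTHFD1L: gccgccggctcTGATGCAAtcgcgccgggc
ASNS: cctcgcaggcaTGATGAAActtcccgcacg

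The E-box CACGTG, which reads the same on both strands and is bound by MYC and related factors, was present in 2548 windows (7.26%) and in 4 of the 14 windows, again 3 overlapping ones of MTHFD1L and the one of MTHFD1. The MTHFD1L site lies at chr6:150866321-150866350, without overlap with the TGATGCAA above, and the MTHFD1 site at chr14:64388327-64388356, both on the plus strand.
MTHFD1L: acgcccggctcCACGTGcgcagccggccgc
MTHFD1: cagtccctaagCACGTGggttgggttgtcc

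The CCAAT box, a common promoter element bound by NF-Y that was added to the search after these sequences had been read, was present on either strand in 12155 windows (34.6%) and in 10 of the 14 windows, which belong to 7 of the 8 genes. The PSAT1 promoter is shown whole as the window with 3 copies, over the 250 bases before the start at chr9:78296875-78297124 on the plus strand, with the boxes in capitals.
PSAT1: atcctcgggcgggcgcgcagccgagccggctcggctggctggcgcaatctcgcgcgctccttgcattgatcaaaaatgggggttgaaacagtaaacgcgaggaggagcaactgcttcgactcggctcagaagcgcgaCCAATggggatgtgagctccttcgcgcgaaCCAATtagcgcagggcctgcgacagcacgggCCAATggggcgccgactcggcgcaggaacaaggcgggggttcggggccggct

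Shorter stretches show the box in PHGDH (chr1:119711852-119711881, plus strand), in MTHFD2 (chr2:74198420-74198449 and chr2:74198530-74198559, plus strand) and in SHMT1 (chr17:18363608-18363637, minus strand). A match of letters is a description of the sequence and does not show that a factor binds there.
PHGDH: agtatttccgtCCAATcaaaaggagactgt
MTHFD2, upstream: ctcttctggctCCAATcaaaagcagggctc
MTHFD2, downstream: tgcggcagggaCCAATgggtggcggaggga
SHMT1: ctgcgccgcagCCAATagcgcgggtgcgtt

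All 9 enzyme genes with an entry had a lower mean in HCC827/GR than in the parental cells, where 49.8% of all tested entries were lower and 50.2% higher. In 7 of the 9 every HCC827/GR library lay below both parental libraries, against 23.4% of all tested entries, and the 2 genes whose groups overlapped were MTHFD1 and MTHFD1L. PSPH alone was past a fold of 0.5, against 4.81% of all entries. Over all tested entries 5.71% passed an adjusted p of 0.05 in the lower direction (limma). With a fold of at most 0.5 and an unadjusted p under 0.05 together, 3.97% of all entries were lower, and 2.96% were higher by the matching rule. The enzyme genes themselves are not counted by p. Nothing is read from these counts, since the same contrast chose the list. On the log2(FPKM + 1) scale, which is used for every difference below and makes changes of weakly expressed genes look smaller, the median difference of the 9 genes was -0.48, beside 0.00 over all entries tested. Each difference is HCC827/GR minus parental and is followed by limma's standard error (SE). In libraries made from whole cultures, fewer cells of a kind and less RNA per cell cannot be told apart.

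**Figure D1:**
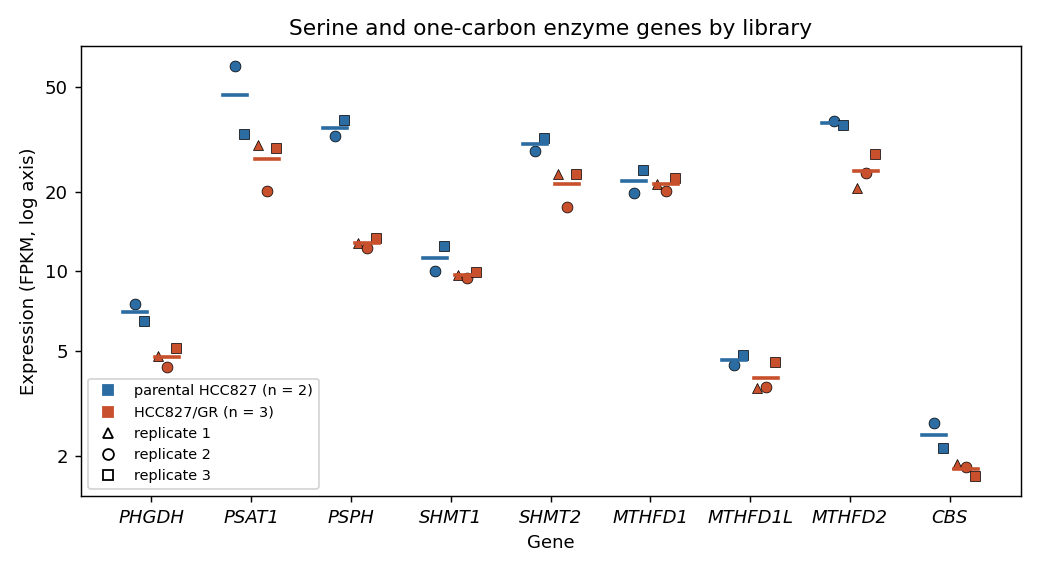
Level of each serine and one-carbon enzyme gene (FPKM, log axis) in the 2 parental HCC827 libraries (blue) and the 3 HCC827/GR libraries (red), with marker shapes for the replicate number and horizontal bars for the group means. PSPH has the widest gap between the groups, while the points of MTHFD1 and of MTHFD1L overlap.

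The serine synthesis enzymes were all lower in HCC827/GR, with a median difference of -0.75. Gene positions here and below are those of GENCODE release 29 on GRCh38. PHGDH (chr1:119648411-119744226), which catalyses the entry step, measured 7.54 and 6.48 FPKM in the parental libraries and 4.79, 4.32 and 5.14 FPKM in HCC827/GR replicates 1, 2 and 3. The groups did not overlap, the ratio of the means was 0.678, and the difference was -0.48 (SE 0.12). PHGDH had the lowest level of the 3 enzymes in every library.

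PSAT1 (chr9:78297143-78330093), the aminotransferase of the middle step, had the highest mean of the list in both groups. However, it lay below PSPH and MTHFD2 in parental replicate 3, and below MTHFD2 and, by a small margin, MTHFD1 in HCC827/GR replicate 2. It measured 59.8 and 33.1 FPKM in the parental libraries and 30.1, 20.1 and 29.4 FPKM in HCC827/GR. Parental replicate 2 stood well above the other libraries, and parental replicate 3 was only just above the highest HCC827/GR library. The difference was -0.75 (SE 0.32), and it was -0.33 without parental replicate 2 and -1.16 without parental replicate 3, so its size rests on these 2 libraries.

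PSPH (chr7:56011051-56051604), the phosphatase that releases serine in the last step, measured 32.5 and 37.5 FPKM in the parental libraries. In HCC827/GR it measured 12.8, 12.2 and 13.4 FPKM, a narrow range that lay far below both parental values. The group means were 35.0 ± 3.49 FPKM (SD, n = 2) and 12.8 ± 0.553 FPKM (SD, n = 3), with a ratio of 0.366 and a difference of -1.38 (SE 0.10). Leaving out any library moved the difference only between -1.48 and -1.28. The PSPH entry joins 18 transcripts, of which 12 are annotated to PSPH and 6 were assembled from the reads without an annotation, and 2.11% of all tested entries were lower by at least as much.

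Added up, the 3 enzymes reached 99.8 and 77.1 FPKM in the parental libraries and 47.8, 36.7 and 47.9 FPKM in HCC827/GR. Within that sum the share of PSPH was 32.6% and 48.6% in the parental libraries and 26.9%, 33.4% and 27.9% in HCC827/GR, so the shares of the groups overlapped. PHGDH took 7.55% and 8.40% of the sum in the parental libraries and more in every HCC827/GR library, up to 11.8%. The PHGDH to PSPH ratio was 0.232 and 0.173 in the parental libraries and 0.373, 0.353 and 0.385 in HCC827/GR, which is a shift of 0.89 on the log2 scale. The PSAT1 to PSPH ratio was 1.84 and 0.884 against 2.34, 1.65 and 2.20, and there the groups overlapped. Its log2 shift of 0.68 was 1.21 without parental replicate 2 and 0.15 without parental replicate 3.

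The mitochondrial folate enzymes were lower by a median of -0.49. SHMT2 (chr12:57229327-57234935), the mitochondrial serine hydroxymethyltransferase, measured 28.5 and 32.0 FPKM in the parental libraries and 23.4, 17.5 and 23.3 FPKM in HCC827/GR, with no overlap and a difference of -0.49 (SE 0.16). MTHFD2 (chr2:74198562-74217565), a mitochondrial dehydrogenase and cyclohydrolase that is known to be high in proliferating and fetal cells and low in most adult tissues, measured 37.0 and 35.8 FPKM against 20.7, 23.7 and 27.8 FPKM. The MTHFD2 groups were well apart, with a ratio of means of 0.660 and a difference of -0.59 (SE 0.15). MTHFD1L (chr6:150865549-151101887), which releases formate from folate in the mitochondrion, measured 4.42 and 4.82 FPKM against 3.61, 3.65 and 4.54 FPKM. HCC827/GR replicate 3 reached into the parental range, and the difference of -0.19 (SE 0.12) was small beside the others. The MTHFD1L entry holds 16 transcripts, of which 10 are annotated to MTHFD1L and 5 were assembled from the reads, and it also joins ARL4AP5.

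The cytosolic counterparts had a smaller median difference of -0.11, although SHMT1 and the mitochondrial MTHFD1L both differed by -0.19. SHMT1 (chr17:18327860-18363563), the cytosolic hydroxymethyltransferase, measured 10.03 and 12.5 FPKM in the parental libraries and 9.70, 9.40 and 9.97 FPKM in HCC827/GR. The groups missed each other by a small margin, and the difference was -0.19 (SE 0.12), or -0.34 without parental replicate 2 and -0.05 without parental replicate 3. MTHFD1 (chr14:64388031-64463457), the cytosolic enzyme with 3 activities, measured 19.8 and 24.2 FPKM against 21.4, 20.2 and 22.5 FPKM. All 3 HCC827/GR values of MTHFD1 lay between the parental values, and the difference of -0.04 (SE 0.12) was 0.11 without parental replicate 3 and 0.0026 without HCC827/GR replicate 2.

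A ratio of isozymes within a library does not depend on the scaling between libraries. The SHMT2 to SHMT1 ratio was 2.84 and 2.56 in the parental libraries and 2.41, 1.86 and 2.34 in HCC827/GR, a log2 shift of -0.30 with no overlap, or of -0.18 without HCC827/GR replicate 2. MTHFD2 over MTHFD1 went from 1.87 and 1.48 to 0.967, 1.17 and 1.24, a log2 shift of -0.57, again with no overlap. For MTHFD1L over MTHFD1 the values were 0.224 and 0.199 against 0.169, 0.181 and 0.202, and the groups overlapped, with a log2 shift of -0.20 that was -0.12 without parental replicate 2.

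**Figure D2:**
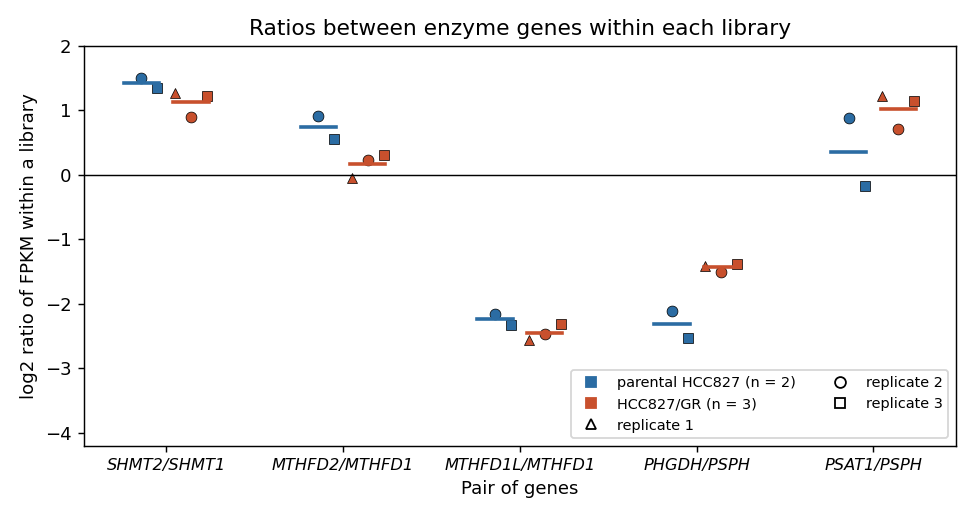
Ratio of the FPKM of paired enzyme genes within each library, on a log2 axis, for parental HCC827 (blue) and HCC827/GR (red), with horizontal bars for the group means. SHMT2/SHMT1 and MTHFD2/MTHFD1 are lower and PHGDH/PSPH is higher in every HCC827/GR library, while MTHFD1L/MTHFD1 and PSAT1/PSPH overlap.

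The remaining genes branch off the pathway. CBS (chr21:43053191-43076943) joins serine and homocysteine to cystathionine. Its own entry had the lowest level of the list, with 2.67 and 2.14 FPKM in the parental libraries and 1.85, 1.81 and 1.68 FPKM in HCC827/GR. The difference of -0.29 (SE 0.11) was -0.18 without parental replicate 2 and -0.40 without parental replicate 3. It is uncertain also since the near-identical copy CBSL has an entry of its own and reads could be split between them. CBSL measured 4.79 and 3.86 FPKM against 3.95, 3.45 and 3.23 FPKM, and its groups overlapped. The sum of both copies was 7.47 and 6.00 FPKM in the parental libraries and 5.80, 5.26 and 4.91 FPKM in HCC827/GR, without overlap.

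ASNS (chr7:97852118-97872542), which makes asparagine from aspartate and is a known ATF4 target, could be read only through the joint entry, in which 16 of 21 transcripts are its own. That entry measured 4.34 and 3.95 FPKM in the parental libraries and 2.67, 2.67 and 3.36 FPKM in HCC827/GR. Its groups did not overlap, and the difference was -0.40 (SE 0.12), close to that of PHGDH.

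FPKM is scaled by length, so levels can be ordered between genes. In the parental cells the order of the means was PSAT1, MTHFD2, PSPH, SHMT2, MTHFD1, SHMT1, PHGDH, MTHFD1L and CBS, and the ranges of PSAT1 and MTHFD2 and of MTHFD2 and PSPH overlapped. The HCC827/GR order was PSAT1, MTHFD2, SHMT2, MTHFD1, PSPH, SHMT1, PHGDH, MTHFD1L and CBS, with overlap between each neighbouring pair of the first 4 and between PHGDH and MTHFD1L. With CBS ranked by its own entry, PSPH was the gene that changed places, from rank 3 to rank 5. There its highest HCC827/GR value lay below the lowest value of MTHFD1. The place of CBS is uncertain, since the sum of CBS and CBSL lay above MTHFD1L in every library. That sum was below PHGDH in both parental libraries, and above it in HCC827/GR replicates 1 and 2 but not 3. In terms of all tested entries, PSPH went from as high as the 96.7th percentile of a library to as low as the 86.9th.

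Set beside the rest of the list, the difference of PSPH was 1.00 log2 unit below the median of the other 8 genes, which was -0.38 with a range from -0.75 to -0.04. The next lowest gene was PSAT1, and PSPH lay a further 0.63 below it. Within single libraries, log2(FPKM + 1) of PSPH exceeded the median of the other 8 genes by 1.15 and 1.06 in the parental libraries. In HCC827/GR it fell short of that median, with values of -0.14, -0.07 and -0.16. Libraries of a group differed with an SD of 0.05 on this measure. Without parental replicate 2 the gap between PSPH and the median of the others was -1.15, and without parental replicate 3 it was -0.87.

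**Figure D3:**
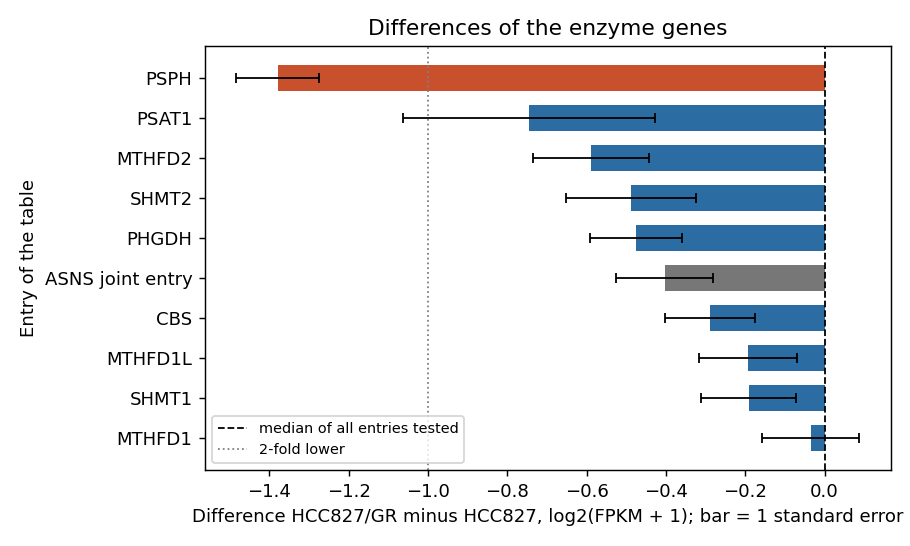
Difference between HCC827/GR and parental HCC827 in log2(FPKM + 1) for the 9 enzyme genes and the joint entry that holds ASNS (grey), as filled bars with error bars of 1 standard error; the dashed line is the median of all entries tested and the dotted line a 2-fold lower level. The filled bar of PSPH, at -1.38, passes the dotted line, which of the others is reached only by the error bar of PSAT1, and the filled bar of MTHFD1 ends beside 0.

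PSPH was then compared with the genes around it on chromosome 7, from a list of 13 genes between SEC61G and CHCHD2 of which 9 had an entry and 8 were tested. All 8 were lower in HCC827/GR with an adjusted p under 0.05 (limma, Benjamini-Hochberg adjustment over all entries tested), beside 5.71% of all entries, and their median difference was -1.93. Nothing is read from this count. The genes were listed with the lower PSPH level and earlier results of these data known. None of the 8 calls held with Ballgown's model or with the replicate numbers as a block. Both models estimate more terms from the same 5 libraries. With the block, HCC827/GR replicate 1 has no parental library of its number and drops out of the difference. No tested entry at all passed with the block, and 6 higher and 9 lower did with Ballgown's model. The lost calls are therefore not particular to these genes. The calls of SEC61G and LANCL2 held when any single library was left out. EGFR lost the call without either parental replicate (adjusted p up to 0.0697, limma), VOPP1 and SUMF2 without either parental replicate or HCC827/GR replicate 1 or 2 (up to 0.193 and 0.0624), NIPSNAP2 without any single library (up to 0.083), PHKG1 without HCC827/GR replicate 1 (0.0518) and CHCHD2 without parental replicate 3 (0.0536). PSPH lies 0.992 Mb from the start of EGFR, the receptor that gefitinib inhibits, whose difference was -3.31 (SE 0.31). This distance, like those below, is taken to the lowest coordinate of a gene, whatever its strand. The genes nearest to PSPH differed by amounts like its own, while the genes nearer to EGFR differed by more.

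NIPSNAP2, which encodes a mitochondrial protein and whose entry also joins ZNF713, MRPS17 and AC092647.5, starts 0.933 Mb from EGFR. It measured 18.9 and 15.3 FPKM in the parental libraries and 7.99, 8.34 and 6.84 FPKM in HCC827/GR, with a difference of -1.05 (SE 0.14; adjusted p = 0.018, limma). SUMF2, a factor related to the sulfatase-modifying enzyme, at 1.045 Mb and in an entry that also joins the chaperonin subunit CCT6A, measured 180.1 and 215.3 FPKM against 74.6, 82.8 and 90.7 FPKM. Its difference was -1.25 (SE 0.14; adjusted p = 0.0122, limma), the nearest to that of PSPH, which lay 0.13 below it.

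PHKG1, a catalytic subunit of phosphorylase kinase, at 1.061 Mb, measured 17.7 and 20.9 FPKM against 9.27, 8.66 and 8.87 FPKM and differed by -1.02 (SE 0.11; adjusted p = 0.0113, limma). CHCHD2, a mitochondrial intermembrane space protein, at 1.083 Mb, measured 680.6 and 787.3 FPKM against 252.4, 227.5 and 277.9 FPKM and differed by -1.54 (SE 0.14; adjusted p = 0.00858, limma). The ratios of the means of these 4 entries ran from 0.344 for CHCHD2 to 0.463 for PHKG1, and PSPH, at 0.366, lay within that range. Its difference of -1.38 lay likewise between those of CHCHD2 and SUMF2. The place of PHKG1 is uncertain, since its name has 4 entries. With entries of one symbol summed, PHKG1 differed by -1.47, which is below the difference of PSPH.

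Nearer to EGFR the differences were larger than that of PSPH. LANCL2, at 0.346 Mb, differed by -2.31 (SE 0.11; adjusted p = 0.00223, limma), VOPP1, at 0.417 Mb, by -3.02 (SE 0.61; adjusted p = 0.0455, limma), and SEC61G, on the other side of EGFR at -0.267 Mb, by -4.08 (SE 0.15; adjusted p = 0.00157, limma). The part of these neighbouring differences in the level of PSPH was not tested.

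**Figure D4:**
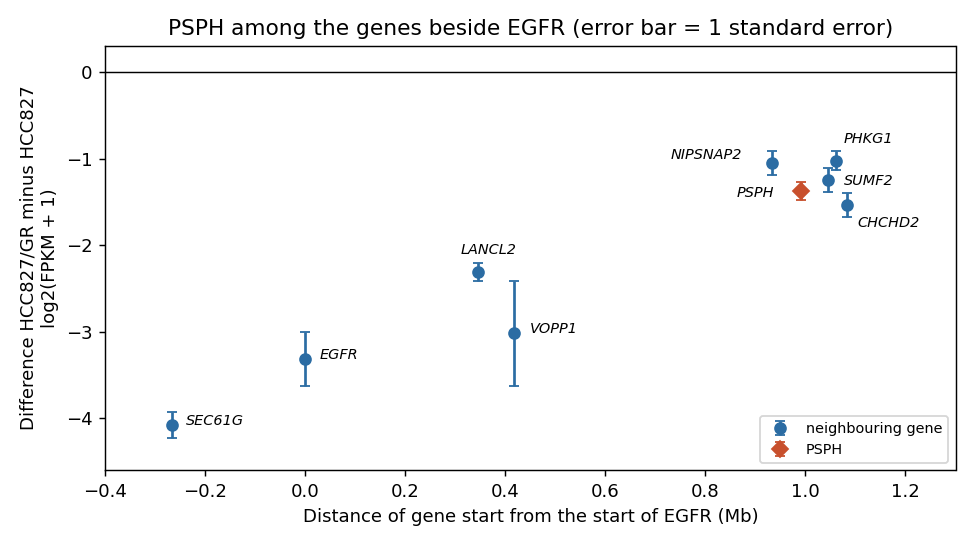
Difference between HCC827/GR and parental HCC827 in log2(FPKM + 1) against the distance of each gene from the start of EGFR (Mb), with bars of 1 standard error and PSPH as a red diamond. The gene start of the axis is the lowest coordinate of the gene, whatever its strand. PSPH, at -1.38, lies among NIPSNAP2, SUMF2, PHKG1 and CHCHD2, between -1.02 and -1.54, and above LANCL2, VOPP1, EGFR and SEC61G, all of which are below -2.

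Only tested entries with a GENCODE gene name were compared with PSPH over the 5 libraries. The most alike of these were MPHOSPH9, PDSS2, AC025575.2, LANCL2 and AC245297.3, with Pearson's r of log2(FPKM + 1) from 0.99899 to 0.99997. These points fall into the 2 cell lines, so a gene that is lower in HCC827/GR and has little spread within each line has a high r, and the likeness is a description. LANCL2, from the EGFR side of the same stretch, is the only one of the 5 on chromosome 7. MPHOSPH9, the most alike, measured 8.15 and 8.70 FPKM against 5.19, 5.05 and 5.29 FPKM, and its difference of -0.61 was smaller than that of PSPH.

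Genes that feed or use the pathway were read from 7 further lists with 105 genes, of which 96 had an entry and 87 were tested. In HCC827/GR 7 passed the adjusted p as higher and 6 as lower, beside 5.26% and 5.71% of all entries, and 74 did not pass. At an unadjusted p under 0.05 the counts were 14 higher and 16 lower, beside 13.4% and 13.8% of all entries, and the unadjusted counts of single lists below are to be read against these shares. The median difference of the 87 was 0.10, with 52 genes higher and 35 lower by any amount. Leaving out parental replicate 2 or 3 left 2 higher calls each and 1 or 2 lower ones. Leaving out HCC827/GR replicate 1, 2 or 3 left 1, 2 or 3 higher calls and 0, 1 or 2 lower ones.

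Among the folate cycle and glycine cleavage genes, 11 were tested, 2 rose and none fell, with a median of 0.30 and, at an unadjusted p under 0.05 (limma), 4 higher and 1 lower. GLDC, the decarboxylase of the glycine cleavage system, measured 0.243 and 0.364 FPKM in the parental libraries and 1.58, 1.64 and 1.48 FPKM in HCC827/GR, a rise of 0.98 (SE 0.12; adjusted p = 0.014, limma). Its call was lost without parental replicate 2 or HCC827/GR replicate 1 or 2, with an adjusted p of up to 0.062 (limma). DLD, the dihydrolipoamide dehydrogenase shared by that system and the pyruvate and oxoglutarate dehydrogenases, measured 12.8 and 12.9 FPKM against 17.8, 19.6 and 18.8 FPKM, a rise of 0.51 (SE 0.09; adjusted p = 0.0336, limma) that was lost without any single library. MTHFD2L, the isozyme of MTHFD2, was represented by an assembled transcript at 1.45 FPKM in both parental libraries and 1.11, 1.17 and 0.962 FPKM in HCC827/GR, and its difference of -0.24 did not pass (adjusted p = 0.241, limma).

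Of 12 tested methionine cycle and transsulfuration genes, 2 rose and none fell, with a median of 0.07 and, at an unadjusted p under 0.05 (limma), 3 higher and 2 lower. SARDH, the mitochondrial sarcosine dehydrogenase that passes carbon to folate, measured 1.02 and 0.601 FPKM in the parental libraries and 7.40, 7.28 and 5.07 FPKM in HCC827/GR, a rise of 2.06 (SE 0.20; adjusted p = 0.0101, limma). BHMT2, which methylates homocysteine, measured 2.88 and 3.59 FPKM against 5.74, 5.73 and 5.84 FPKM, a rise of 0.68 (SE 0.11; adjusted p = 0.0274, limma). The call of SARDH was lost without either parental replicate, with an adjusted p of up to 0.0606 (limma), and that of BHMT2 without any single library.

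Of 12 tested folate and serine carriers, 1 fell and none rose, with a median of 0.12 and, at an unadjusted p under 0.05 (limma), 0 higher and 1 lower. That carrier was SLC6A9, a glycine transporter of the cell membrane, which measured 2.25 and 1.49 FPKM against 0.626, 0.451 and 0.587 FPKM, a difference of -0.87 (SE 0.16; adjusted p = 0.0389, limma). None of 10 tested genes of serine and glycine use passed in limma, with a median of 0.24, and 1 was higher and 1 lower at an unadjusted p under 0.05. Of 5 tested purine synthesis genes, PPAT, the amidotransferase of the committed step, rose from 6.67 and 7.37 FPKM to 10.7, 12.5 and 13.1 FPKM, a difference of 0.70 (SE 0.12; adjusted p = 0.0319, limma), and the median of the list was 0.14. No other gene of that list passed an unadjusted p under 0.05 (limma). The calls of SLC6A9 and PPAT were each lost without any single library.

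Of 16 tested genes of the ATF4 axis, which holds ATF4, its partners and its stress targets, 1 rose and 1 fell, with a median of 0.20 and, at an unadjusted p under 0.05 (limma), 3 higher and 3 lower. ATF4 itself measured 95.8 and 16.8 FPKM in the parental libraries and 11.7, 56.5 and 46.2 FPKM in HCC827/GR. The ATF4 values differed more within each line than between the lines, and the difference of -0.35 (SE 1.00) did not pass (adjusted p = 0.864, limma). VLDLR, a lipoprotein receptor, measured 4.45 and 6.04 FPKM against 16.1, 15.6 and 14.4 FPKM, a rise of 1.40 (SE 0.14; adjusted p = 0.0109, limma). SESN2, a stress-induced inhibitor of mTORC1 signalling, measured 2.89 and 4.09 FPKM against 1.31, 1.83 and 1.40 FPKM, a difference of -0.83 (SE 0.17; adjusted p = 0.0476, limma). Without HCC827/GR replicate 1 VLDLR had an adjusted p of 0.0518 (limma), and SESN2 was lost without any single library.

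Of 21 tested ATF4-linked amino acid enzymes and tRNA synthetases, 4 fell and 1 rose, with a median of -0.14 and, at an unadjusted p under 0.05 (limma), 2 higher and 8 lower. GOT2, the mitochondrial aspartate aminotransferase, measured 67.4 and 75.3 FPKM in the parental libraries and 32.6, 33.6 and 36.0 FPKM in HCC827/GR, a difference of -1.04 (SE 0.10; adjusted p = 0.01, limma), with an adjusted p of 0.0508 without HCC827/GR replicate 1. WARS1, the cytosolic tryptophan tRNA synthetase, measured 24.9 and 27.1 FPKM against 15.3, 13.8 and 17.7 FPKM, a difference of -0.71 (SE 0.13; adjusted p = 0.0385, limma). LARS1, the leucine enzyme, moved the other way, from 14.1 and 13.5 FPKM to 20.7, 22.3 and 24.0 FPKM, a rise of 0.65 (SE 0.10; adjusted p = 0.026, limma). The other 2 that fell were AARS1 and CARS1, the alanine and cysteine enzymes. Both of these and LARS1 lost the call without any single library, and WARS1 kept it only without HCC827/GR replicate 3.

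**Figure D5:**
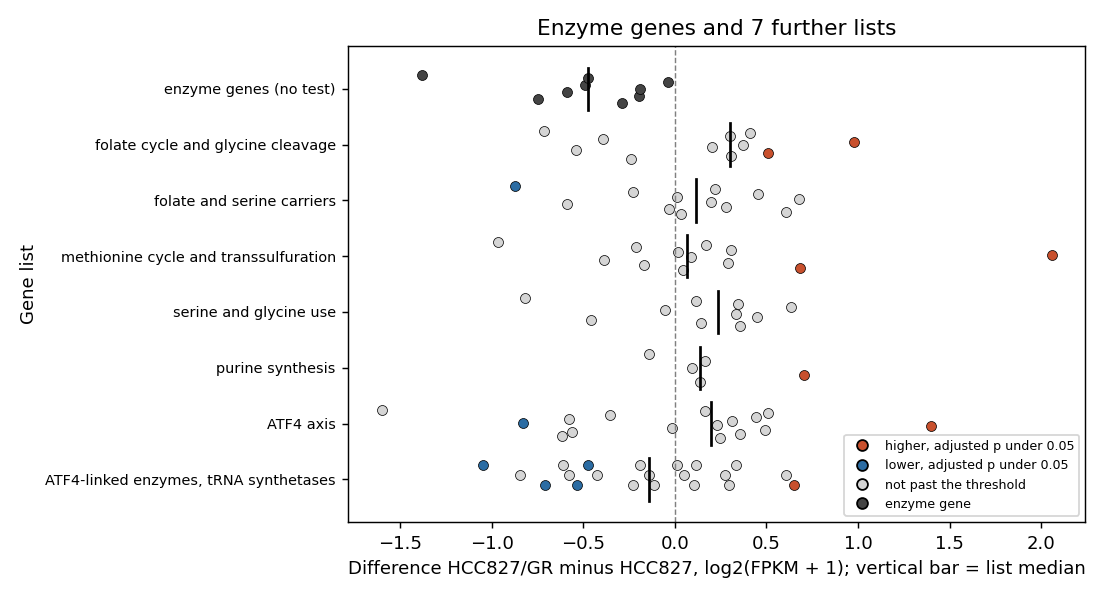
Difference between HCC827/GR and parental HCC827 in log2(FPKM + 1) for each of the 9 enzyme genes and each tested gene of the 7 further lists, each point a gene, coloured by the adjusted p for the further lists, and each vertical bar the median of its list. The enzyme genes lie below 0 with a median of -0.48, and the further lists spread on both sides of 0 with medians from -0.14 to 0.30.

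The libraries held between 8896 and 9803 entries at 0, and their pairwise Pearson's r was 0.913 to 0.927 within a line and 0.851 to 0.873 between lines, across entries, which are not independent. Without read counts in the table, sequencing depth could not be compared. Of 7 lung and epithelial markers 6 were tested and 5 were lower in HCC827/GR by the adjusted p, beside 5.71% of all entries. Their median difference was -1.58. EPCAM, KRT8, KRT18, KRT19 and CDH1 stayed above 5 FPKM in every library. NKX2-1, in an entry that also joins SFTA3, did not. It measured 4.599 and 4.003 FPKM in the parental libraries and 0.963, 0.7625 and 0.4155 FPKM in HCC827/GR, a difference of -1.64. NAPSA had no entry. Without parental replicate 2 the call of EPCAM alone was left, KRT18, CDH1 and NKX2-1 were also lost without parental replicate 3, KRT18 and KRT19 without HCC827/GR replicate 1, and KRT18 without HCC827/GR replicate 2 or 3, with adjusted p values of up to 0.155 (limma). Of 10 markers of immune, endothelial and fibroblast cells 9 had an entry and 2 were tested, COL1A1, which was below 0.9 FPKM in every library, and an assembled entry under the name PECAM1 with no annotated PECAM1 transcript, which was at 4.34 and 3.31 FPKM in the parental libraries, at 0 in HCC827/GR, and lower by the adjusted p. The part of these marker differences in the enzyme levels was not tested.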

How the data were processed

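RNA of 2 parental HCC827 and 3 HCC827/GR libraries was measured. The authors trimmed reads with cutadapt, checked them with FastQC, aligned them with Bowtie2 and TopHat2, assembled transcripts and computed the deposited FPKM values with StringTie, and used Ballgown to estimate transcript levels and to choose changed genes; the submitters' processing notes list the build hg18, and versions were not given in the sources used here. The labels describe small RNA libraries, whereas the study's methods describe libraries depleted of ribosomal RNA. 1 FPKM column, whose header (GS_1) reads as a further parental library, matched no sample and was left out. FPKM values carry no read counts, so sequencing depth is unknown and no counting interval is given. The deposited entries have no coordinates, so gene positions are those of GENCODE release 29 (GRCh38), and promoter sequence is from RefSeq (GRCh38.p14).

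Entries averaging 0.5 FPKM or more (16189 of 37181) were fitted as log2(FPKM + 1) with limma 3.58.1 (lmFit, eBayes with trend) in R 4.3.3, two-sided, with Benjamini-Hochberg adjustment over all of them. An entry was called at an adjusted p under 0.05, and a fold of at least 2 or at most 0.5 with an unadjusted p under 0.05, the thresholds of the study, was counted beside it. limma stands in place of Ballgown's own model, which was run as an alternative. The fit was tested on simulated data. Figures and summaries were made with Python 3.11.15, numpy 2.4.6, pandas 2.3.3 and matplotlib 3.10.9. The enzyme genes and all lists were chosen with earlier results of these data known. Named from each further list were the genes with an adjusted p under 0.05 that had a fold of at least 2 or at most 0.5 or were among the 3 with the largest difference, together with ATF4 and MTHFD2L; AARS1 and CARS1 were named after their values were seen. All tested genes beside PSPH and EGFR were named, as were the 5 entries most like PSPH among those with a GENCODE gene name. Alternatives changed the pseudocount to 0.1, the filter to none or 1 FPKM, the scaling (median-ratio, quantile, a common sum per library), the variance model, the test, the replicate block, the summing of entries of a symbol, the form of the fold and the libraries used. Samples sharing a number (replicates 2 and 3) did not deviate together (correlation of the replicate 2 minus replicate 3 values between the lines 0.0274), so numbers were not treated as pairs.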

Additional observations from a re-analysis of the deposited data

How the results depend on the processing

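All 9 enzyme genes kept a lower mean in HCC827/GR under every alternative run except MTHFD1, which ranged from -0.18 to 0.11 with a library left out, being 0.0026 without HCC827/GR replicate 2 and 0.11 without parental replicate 3. PSPH differed by -1.49 with values rescaled to a common sum per library and by -1.48 to -1.28 with a library left out. Its gap to the median of the other genes was -1.15 to -0.87 with a library left out, and the median of all 9 was -0.52 to -0.34. The log2 shift of PHGDH over PSPH was 0.68 to 1.10 and that of PSAT1 over PSPH 0.15 to 1.21 with a library left out, while SHMT2 over SHMT1 ranged from -0.38 to -0.18, MTHFD2 over MTHFD1 from -0.74 to -0.40 and MTHFD1L over MTHFD1 from -0.29 to -0.12. By fold and p, 480 entries were higher and 643 lower, which became 860 and 1024 with a pseudocount of 0.1, 919 and 1201 by the ratio of mean FPKM, and 806 and 1092 rescaled to a common sum. By the adjusted p, 851 were higher and 924 lower, which became 6 and 9 with Ballgown's model, 528 and 541 rescaled to a common sum, 202 to 485 and 287 to 477 with a library left out, and 504 higher without a filter. With the replicate block both counts were 0 by limma, with 1676 higher and 1869 lower at an unadjusted p under 0.05.

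In the 7 further lists, the calls (7 higher, 6 lower) became 0 and 0 with Ballgown's model (8 and 7 at an unadjusted p under 0.05) and with the replicate block by limma (15 and 15 unadjusted), 4 and 1 rescaled to a common sum, 3 lower with median-ratio scaling, 1 lower without a filter, and 1 to 3 higher and 0 to 2 lower with a library left out. ATF4 turned to 0.33 without HCC827/GR replicate 1. The replicate block gave the same estimate of 0.33, since that replicate has no parental library of its number and drops out. With a library left out, ATF4 ranged from -1.57 to 0.87 (0.87 without parental replicate 2). None of the 8 tested genes beside PSPH and EGFR kept its call with Ballgown's model. There the adjusted p ran from 0.0803 for SEC61G to 0.279 for VOPP1. With the replicate block by limma all 8 calls were lost too, with an adjusted p from 0.124 for SEC61G to 0.159 for VOPP1. Under that block no tested entry passed, so the loss is not particular to these genes. The causes were not tested. Scaling moved the median of all entries to between -0.04 and 0.02. With 2 parental libraries and no read counts, a difference within the range of either line was not resolved.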
